A study of Mus musculus with 4 samples.

Results

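F-mini ON ganglion cells are a type of retinal ganglion cell (RGC), the neurons whose axons carry the retina's output to the brain. They were taken as the cells that the deposited table assigns to the type 03_FminiON, and they numbered 6996 of 131379 RGCs. The retinas came from wild-type C57BL/6 mice kept without any manipulation, and no age is given in the labels. Cryosections of 20 µm were cut en face, along the plane of the retina, and imaged with Xenium, which reads out transcripts in the tissue as single puncta, for a custom panel of 300 genes. Every cell of the table was called an RGC, held at least 100 puncta and carried 1 of 45 type names. Retinas, of which there were 5, served as replicates. Since nothing states that they were taken from different mice, a p-value covers no more than the spread among these 5.

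The F-RGCs share the forkhead transcription factor Foxp2 and are divided into mini and midi forms by the size of the dendritic field, and into ON and OFF forms by the response to light. F-mini cells have small dendritic arbors, are abundant in the mouse retina and are known to respond to the direction of motion. An ON cell fires when light increases on its receptive field, and the matching OFF cell when light decreases. The OFF counterpart, 04_FminiOFF, held 4390 cells, and the midi types 28_FmidiOFF and 38_FmidiON held 1815 and 995 cells.

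The retinas contributed 2020, 2199, 619, 1553 and 605 F-mini ON cells, in the order of retinas 1 to 5, from 37 of the 41 sections. Of the 8 slides, 2 hold sections of more than 1 retina. F-mini ON cells held a median of 276 ± 16 puncta and F-mini OFF cells 292 ± 17 puncta (SD of the medians of 5 retinas). A value per cell therefore rests on few puncta, and genes were compared as sums over all cells of a type in a retina. The probes of a panel differ in how well they detect their transcript, so levels of different genes were not set against each other. Log2 ratios between types are of puncta of a gene as a share of all puncta of the type, and so are ranks among types. The authors' types can rest on the same genes, so that ratios between types are descriptions with no test.

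The label was checked against Foxp2, Foxp1 and Grin3a. Foxp2 averaged 2.38, 2.24, 1.95, 2.17 and 2.16 puncta per F-mini ON cell in retinas 1 to 5, against 1.98, 1.82, 1.84, 1.82 and 1.94 per F-mini OFF cell. Over all RGCs outside the type it lay between 0.212 and 0.235 puncta per cell. Foxp2 was thus highest in F-mini ON of all 45 types and next highest in F-mini OFF, with a log2 ratio of 3.48 ± 0.06 over all other RGCs and 0.28 ± 0.08 over F-mini OFF (SD, n = 5, the same sign in 5 of 5 retinas). At least 1 Foxp2 punctum was found in 79.8 ± 2.6% of F-mini ON cells. It was found in 3.4% of 43_AlphaONS cells, the type with the lowest share, although these held a median of 415 puncta against 278 over all F-mini ON cells. With every cell thinned to 100 puncta, these shares were 51.7% and 1.0%.

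Foxp1, a forkhead factor related to Foxp2, and Grin3a, an NMDA receptor subunit, did not mark the F-mini ON cells. Foxp1 averaged 0.380, 0.300, 0.249, 0.285 and 0.256 puncta per F-mini ON cell in retinas 1 to 5, against 3.22, 2.86, 2.69, 2.69 and 2.63 per F-mini OFF cell. Grin3a averaged 0.415, 0.372, 0.297, 0.326 and 0.302 puncta per F-mini ON cell, against 3.82, 3.22, 3.08, 3.21 and 2.93 per F-mini OFF cell. The retina means of the types did not overlap, and the log2 ratio of F-mini ON over F-mini OFF was -3.20 ± 0.13 for Foxp1 and -3.19 ± 0.09 for Grin3a. Single cells were less separate: at least 1 Foxp1 punctum was found in 22.4% of F-mini ON and 89.1% of F-mini OFF cells. For Grin3a the shares were 25.2% and 94.0%. Both genes were also lower in F-mini ON than in all other RGCs, by -0.51 ± 0.14 and -0.26 ± 0.08 on the log2 scale, and F-mini ON ranked 23 and 18 among the 45 types. F-mini OFF ranked 1 for both. All 3 markers were found together in 6.1% of F-mini ON cells, 70.2% of F-mini OFF cells and 2.6% of other RGCs. Foxp2 was also high in other F-RGC types, with 7.75 per 1000 puncta in F-mini ON, against 6.39 in F-mini OFF, 4.89 in 38_FmidiON, 4.84 in 32_F_Novel and 4.35 in 28_FmidiOFF. Foxp2 thus places the cells among the F-RGCs, whereas Foxp1 and Grin3a did not mark them and were highest in the OFF counterpart. Both were also higher in 28_FmidiOFF, at 5.85 and 6.83 per 1000 puncta, than in 38_FmidiON, at 2.14 and 3.42. Whether the assignment of single cells to the ON type is right was not tested.

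**Figure D1:**
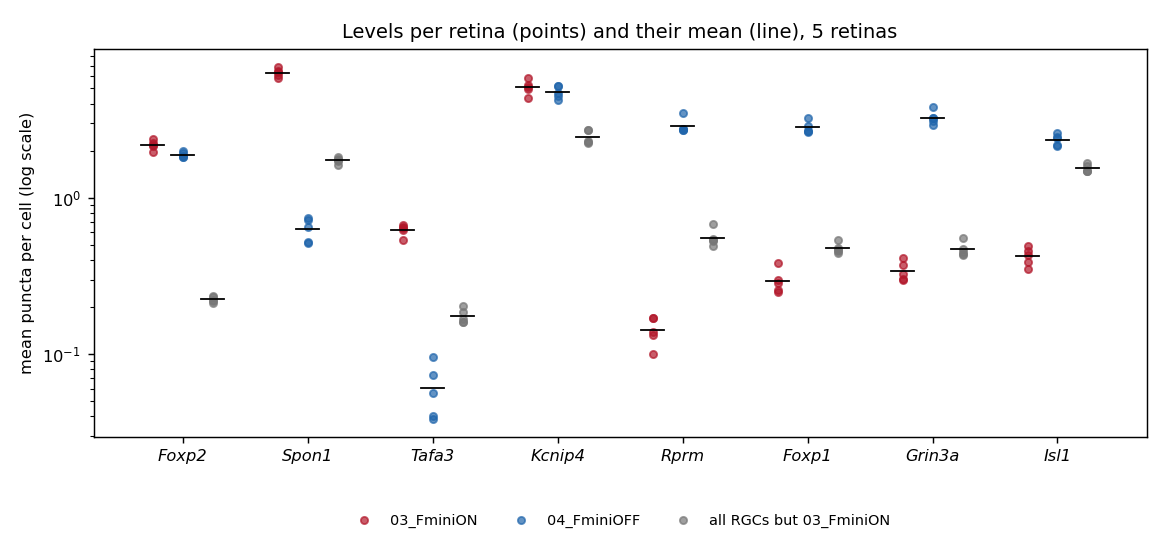
Mean puncta per cell, on a log scale, of 8 genes in F-mini ON cells (red), F-mini OFF cells (blue) and all RGCs outside F-mini ON (grey); each point is 1 of 5 retinas and each line their mean. Foxp2 and Kcnip4 are high in both F-mini types, Spon1 and Tafa3 are high in F-mini ON alone of the 2, and Rprm, Foxp1, Grin3a and Isl1 are low in F-mini ON and high in F-mini OFF.

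Against all other RGCs, Foxp2, Spon1 and Tafa3 had the largest log2 ratios among the genes described here. Spon1, which encodes the extracellular matrix protein F-spondin, averaged 6.88, 6.06, 5.84, 6.33 and 6.42 puncta per F-mini ON cell in retinas 1 to 5, against 1.62 to 1.83 in other RGCs. Its log2 ratio was 2.06 ± 0.10, and only 32_F_Novel had more. Tafa3, a secreted chemokine-like protein, was highest in F-mini ON of all types, at 0.623 ± 0.049 puncta per cell against 0.175 ± 0.019 in other RGCs and a log2 ratio of 2.03 ± 0.16.

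The other genes with the largest ratios were likewise higher in every retina. Kcnd2, the Kv4.2 channel that carries A-type potassium current, averaged 1.93 puncta per F-mini ON cell and 0.753 in other RGCs, and its partner Kcnip4 averaged 5.11 and 2.45. Cacna1i, a low-threshold T-type calcium channel, averaged 1.49 puncta per F-mini ON cell and 0.745 in other RGCs. Ppp1r17, an inhibitor of protein phosphatases, had a log2 ratio of 1.78 and Lrrtm1, a synaptic adhesion protein, a ratio of 1.70. Kcnip4, Slc6a9 (a glycine transporter), Grm4 (a metabotropic glutamate receptor) and Gpr37 (an orphan receptor) were each highest in F-mini ON of all 45 types, with log2 ratios of 1.26, 1.22, 1.17 and 1.14.

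The genes with the lowest ratios included markers of other RGC classes. Of all 300 genes, 75 (25%) were higher and 146 (48.7%) lower in F-mini ON than in other RGCs in all 5 retinas, and the median log2 ratio was -0.16. At least a 2-fold difference in all 5 retinas was seen upward for 12 genes (4%) and downward for 53 (17.7%). Zic1, a zinc-finger transcription factor, had a log2 ratio of -2.33 ± 0.66, with 0.051 puncta per F-mini ON cell and 0.275 in other RGCs. Tbx20, a T-box factor of intrinsically photosensitive RGCs, had -2.30, and Spp1, which encodes osteopontin and marks alpha RGCs, had -2.29. Penk, the enkephalin precursor, averaged 0.258 puncta per F-mini ON cell against 1.41 in other RGCs. Nell1, Stk32a, Irx6, Atp2b4 (a plasma membrane calcium pump), Coch, Syndig1l, Tfap2d and Cacna1e (the R-type calcium channel) lay between -2.31 and -1.94.

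Against the OFF counterpart, 133 genes (44.3%) were higher and 69 (23%) lower in all 5 retinas, with a median log2 ratio of 0.18. A difference of at least 2-fold in all 5 retinas was seen upward for 15 genes (5%) and downward for 23 (7.67%). Spon1 held 0.517, 0.520, 0.747, 0.723 and 0.649 puncta per F-mini OFF cell, so that its log2 ratio of F-mini ON over F-mini OFF was 3.40 ± 0.30. Tafa3 had a ratio of 3.49 ± 0.62 and Lrrtm1 of 3.38 ± 0.24. Lpl, which encodes lipoprotein lipase, averaged 0.947 puncta per F-mini ON cell and 0.111 per F-mini OFF cell. Sv2c, a synaptic vesicle protein, averaged 3.65 and 0.640. Scn7a, a sodium channel gated by extracellular sodium rather than by voltage, had a log2 ratio of 2.36 ± 0.13, and Pou4f2, the RGC transcription factor Brn3b, a ratio of 2.27 ± 0.31. Kcna4 (the Kv1.4 potassium channel), Ppp1r17 and Grm5 (a metabotropic glutamate receptor) followed with 2.06, 1.92 and 1.70.

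Rprm was the gene that separated the pair most in the other direction. It averaged 0.139, 0.171, 0.171, 0.132 and 0.101 puncta per F-mini ON cell in retinas 1 to 5, against 2.73, 3.50, 2.76, 2.73 and 2.76 per F-mini OFF cell, a log2 ratio of -4.29 ± 0.30. Tafa1, of the same family as Tafa3, had a ratio of -3.45 ± 0.19, opposite in sign to that of Tafa3. Npnt, an extracellular matrix protein, had -3.24 ± 0.30 and the cadherin Cdh8 -2.45 ± 0.07. Isl1, a LIM-homeodomain factor, averaged 0.424 puncta per F-mini ON cell and 2.36 per F-mini OFF cell. Gria1, the GluA1 subunit of the AMPA receptor, averaged 0.426 and 2.33. Grm3 and Serpine2, a secreted protease inhibitor, had log2 ratios of -2.39 and -2.38.

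By function, lists of genes were counted in the same way. Over all 300 genes, 25% were higher and 48.7% lower in all 5 retinas against other RGCs, and 44.3% and 23% against F-mini OFF. Most measured transcription factors were lower in F-mini ON than in the sum of all other RGCs, to which the types that express them contribute. A low ratio was not always a low rank among the types. Counted from the highest type, F-mini ON ranked 14 for Tbx20, 23 for Foxp1, 29 for Zic1 and 42 for Isl1. Of 20 factors, 3 were higher and 16 lower than in other RGCs in all 5 retinas, with a median log2 ratio of -0.98. Isl2 was among the higher ones, at 1.30 puncta per F-mini ON cell and 0.939 in other RGCs. Against F-mini OFF the same 20 divided into 9 higher and 4 lower. Ebf3 averaged 0.946 puncta per F-mini ON cell and 0.343 per F-mini OFF cell.

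Of 9 ionotropic glutamate receptor subunits, 5 were higher and 3 lower than in other RGCs. Gria3, an AMPA receptor subunit, led with a log2 ratio of 1.07 ± 0.03, and 1 type had more. Against F-mini OFF, 4 were higher and 4 lower, and the AMPA subunits divided. Gria2 was higher, at 10.7 ± 0.42 puncta per F-mini ON cell and 7.26 ± 0.38 per F-mini OFF cell, as was Gria3 with a log2 ratio of 0.88 ± 0.10, while Gria1 was lower. F-mini ON had more Gria2 than any other type.

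Of 15 GABA and glycine receptor subunits, 3 were higher and 8 lower than in other RGCs, near the shares over all 300 genes. Summed, they held 25.6 puncta per F-mini ON cell and 21.9 in other RGCs. The lowest ratios in the list were those of Gabrb1 and Gabrg3, subunits of the GABA-A receptor, with -1.66 ± 0.17 and -1.60 ± 0.24 on the log2 scale. Against F-mini OFF, 8 were higher and 2 lower, with a median log2 ratio of 0.39.

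Of 33 potassium channel genes, which take in channel partners, 8 were higher and 20 lower than in other RGCs. The A-type channels differed in sign: Kcnd2 was among the higher ones, and Kcnd3 averaged 0.426 puncta per F-mini ON cell against 1.39 in other RGCs, the next to lowest level of all types. Kcnh1 had a log2 ratio of -1.92 ± 0.16. Against F-mini OFF, 13 were higher and 15 lower. Kcna4 was among the higher ones, and Kcnb2 and Kcnj12 had ratios of -1.31 and -1.51.

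Of 9 sodium channel genes, 4 were higher and 4 lower than in other RGCs, with Scn3a at a log2 ratio of 0.62 and the subunit Scn4b at -0.96. Of 16 calcium channel genes, 9 were higher and 3 lower. Cacna2d2, an auxiliary subunit, averaged 3.05 puncta per F-mini ON cell and 1.92 in other RGCs, whereas Cacng2, also called stargazin, was lower in F-mini ON than in any other type. Adhesion molecules were mostly lower than in the sum of other RGCs, with 1 of 9 higher and 7 lower. Pcdh11x averaged 0.597 puncta per F-mini ON cell and 2.44 in other RGCs, and Lrrtm1 was the 1 higher member. Of 5 calcium-binding proteins none was higher and 3 were lower, with Calb1 (calbindin) at 0.662 puncta per F-mini ON cell and 2.30 in other RGCs.

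Markers of other RGC classes were lower in F-mini ON than in the sum of all other RGCs, to which the types that express them contribute. All 4 genes of intrinsically photosensitive RGCs were lower in F-mini ON than in other RGCs, with a median log2 ratio of -2.01, and the photopigment Opn4 averaged 0.025 puncta per F-mini ON cell against 0.187 in other RGCs. All 5 alpha RGC genes were lower, with a median of -1.23. Of 5 general RGC markers, 2 were higher and 3 lower. Rbpms, an RNA-binding protein of all RGCs, had a log2 ratio of 0.10.

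Markers of retinal cells other than RGCs were also summed. All 4 rod genes were higher in F-mini ON than in F-mini OFF, and the rod genes summed to 5.43 per 1000 puncta (range over retinas 3.73 to 7.75) in F-mini ON and 4.05 (2.59 to 6.26) in F-mini OFF, a log2 ratio of 0.44 ± 0.15. The 3 cone genes summed to 0.676 and 0.331 per 1000 puncta, with a log2 ratio of 0.99 ± 0.58. Of 17 amacrine markers 3 were higher and 8 lower in F-mini ON than in other RGCs, of 13 bipolar markers 1 and 4, of 6 horizontal cell markers 0 and 3, and of 6 Müller glia markers none in either direction.

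A small set of cells carried part of the photoreceptor signal. Guca1b, a photoreceptor activator of guanylate cyclase, reached 10 or more puncta in 27 F-mini ON cells from 11 sections of 4 retinas, a threshold chosen after the values were seen. These cells had a median volume of 1696 against 530 in the other F-mini ON cells, in units that are not stated. They averaged 0.037 Foxp2 puncta against 2.24, 0.630 Rbpms puncta against 6.24 and 0.222 Slc17a6 puncta against 9.50. The rod factor Nrl averaged 19.7 puncta in them against 0.094 in the others, and the cone opsin gene Opn1mw 13.7 against 0.080. The 27 cells thus carried photoreceptor transcripts and few of those of RGCs. They made up 0.39% of F-mini ON cells. Such cells were also found in 05_J-RGC (42 cells, 0.91%), 15_Novel (27, 1.00%) and 14_ooDS_Cck (14, 0.35%). Many further types held 9 or fewer each, among them 32_F_Novel with 3 and 28_FmidiOFF with 2, and F-mini OFF held none. Without the 27 cells, the rod genes summed to 4.68 per 1000 puncta in F-mini ON and 4.05 in F-mini OFF, with a log2 ratio of 0.23 ± 0.15. The cone genes then summed to 0.410 per 1000 puncta in F-mini ON and 0.331 in F-mini OFF, with a log2 ratio of 0.31 ± 0.15, and the ratio for Nrl was -0.00 ± 0.25 against 0.89 ± 0.74 with them.

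Of the F-mini ON cells, 1363 (20.2 ± 2.57% per retina) had no Foxp2 punctum. The 5633 cells with Foxp2 held a median of 298 puncta and a median volume of 554, and those without it 197 puncta and a volume of 424. Spon1 averaged 7.00 puncta in cells with Foxp2 and 3.75 in cells without it, so that both groups lay above the 1.74 puncta of other RGCs. As a share of puncta, Spon1 and Ppp1r17 were higher in cells with Foxp2 by 0.47 ± 0.04 and 0.54 ± 0.09 on the log2 scale. The largest differences lay the other way, in photoreceptor genes, with log2 ratios of -2.85 for Rpgrip1, -2.81 for Otx2, -2.53 for Nrl and -2.30 for Guca1b, each lower in cells with Foxp2 in 5 of 5 retinas. Guca1b averaged 0.321 puncta in cells with Foxp2 and 1.40 in cells without it, which include most of the cells rich in Guca1b. These are descriptions of subsets cut on a single gene.

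F-mini ON cells were small. Their median volume was 530, 549, 582, 493 and 555 in retinas 1 to 5, which ranked 40 of 45 types, and that of F-mini OFF cells was 544, 558, 576, 500 and 575. The log2 ratio was -0.02 ± 0.02 and did not pass the exact permutation test (two-sided, by flipping the sign of each retina's value, p = 0.125), which cannot go below 0.062 with 5 retinas. Periphery and centre, split at a radius of 0.5 on the authors' scaled positions, differed by -0.02 ± 0.09 on the log2 scale (p = 1, same test). In retina 3 the median was 547 in the periphery and 618 in the centre, and in the other retinas the 2 medians differed by at most 0.03 on the log2 scale.

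F-mini ON cells made up 5.76, 5.36, 4.72, 5.60 and 4.21% of RGCs in retinas 1 to 5, and F-mini OFF cells 3.29 ± 0.18% (mean ± SD, n = 5). There were 1.73, 1.58, 1.57, 1.62 and 1.29 ON cells for each OFF cell. ON cells were the more numerous in 5 of 5 retinas, with a log2 ratio of 0.63 ± 0.16 (exact sign-flip test, two-sided, p = 0.062, the smallest that 5 retinas allow). These are shares of the cells that the authors kept, by the types they assigned.

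The design asks how the types are distributed over the retina. The F-mini ON share was lower on the X positive side than on the X negative side in every retina. It was 5.33, 5.08, 4.30, 5.16 and 3.99% on the X positive side, against 6.25, 5.72, 5.00, 6.08 and 4.41% on the X negative side. The log2 ratio was -0.203 ± 0.029 (SE, edgeR quasi-likelihood fit on cell counts with the retina as block, adjusted p = 0.00242). Along X, 13 of the 45 types (28.9%) passed at an adjusted p of 0.05. The authors' labels give no anatomical direction for X or Y. F-mini OFF had a log2 ratio of -0.178 ± 0.059 along X (adjusted p = 0.0527), and the number of ON cells per OFF cell did not differ detectably along X, with a log2 ratio of 0.01 ± 0.19 (SD, exact sign-flip permutation test, p = 1).

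**Figure D2:**
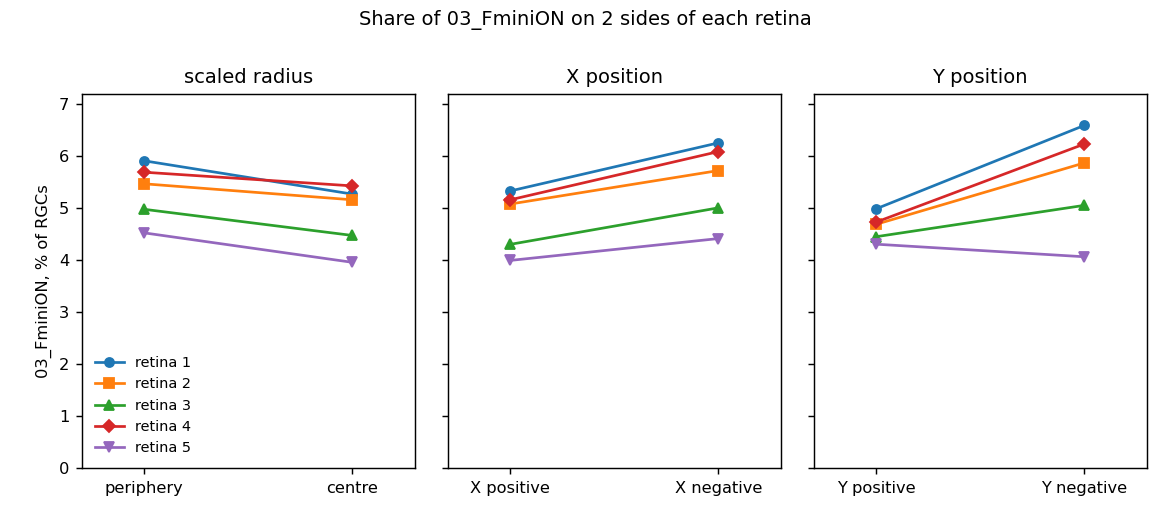
Share of F-mini ON among RGCs, in percent, on both sides of each retina along the scaled radius, X and Y; each line joins the sides of 1 of 5 retinas. All 5 lines are lower on the X positive side, all 5 are higher in the periphery by a smaller step, and along Y 4 retinas are lower on the Y positive side while retina 5 is not.

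Along the radius the share was higher in the periphery in every retina, by a difference that did not pass the test. It was 5.91, 5.47, 4.97, 5.69 and 4.52% in the periphery, against 5.27, 5.16, 4.47, 5.43 and 3.96% in the centre. The log2 ratio was 0.125 ± 0.055 (SE, edgeR, adjusted p = 0.0785), on an axis where 19 of 45 types (42.2%) passed. Without retina 3, which has the fewest cells, the adjusted p was 0.0432. In rings of increasing scaled radius, each 0.2 wide, the share averaged 4.37, 5.07, 4.99, 5.29 and 5.75%. Beyond a scaled radius of 1, where 4207 RGCs lay, it was 6.91, 5.07, 3.70, 5.04 and 0% in retinas 1 to 5, lower than in the ring before it in 4 of 5 retinas. F-mini OFF had a log2 ratio of -0.039 (adjusted p = 0.624). The number of ON cells per OFF cell had a log2 ratio of 0.15 ± 0.19, periphery over centre (SD, exact sign-flip permutation test, p = 0.188), so that a difference between the pair was not shown.

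Along Y the share was 4.99, 4.69, 4.45, 4.73 and 4.30% on the Y positive side, against 6.59, 5.87, 5.05, 6.23 and 4.06% on the Y negative side. It was lower on the Y positive side in retinas 1 to 4 and higher in retina 5, with a log2 ratio of -0.254 ± 0.079 (SE, edgeR, adjusted p = 0.0959). No type (0%) passed along Y. Without retina 5 the log2 ratio was -0.334 and the adjusted p 0.0231. F-mini OFF had a log2 ratio of -0.275 (adjusted p = 0.0959). Opn1sw, the short-wavelength cone opsin whose expression is graded from dorsal to ventral in the mouse retina, also differed between retinas along Y. Over all RGCs it averaged 0.0119, 0.0191, 0.0497, 0.0279 and 0.0688 puncta per cell on the Y positive side, against 0.0314, 0.0298, 0.0416, 0.0394 and 0.0254 on the Y negative side. Retinas 3 and 5 thus had more Opn1sw on the Y positive side, and retinas 1, 2 and 4 less. Whether Y runs the same way in all 5 retinas was not tested.

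Over quadrants the share was lowest where X and Y were both positive, at 4.24 ± 0.26%, and highest where both were negative, at 5.75 ± 1.22% (SD, n = 5). Retina 5 differed, with 3.85% where both were negative and its highest share, 4.70%, where X was negative and Y positive. Quadrants and map took positions as deposited, with the direction of Y untested. On a map of 78 squares with at least 300 RGCs each, it lay between 2.95 and 7.81% with a median of 5.38%, so that F-mini ON cells were found all over the mapped retina.

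**Figure D3:**
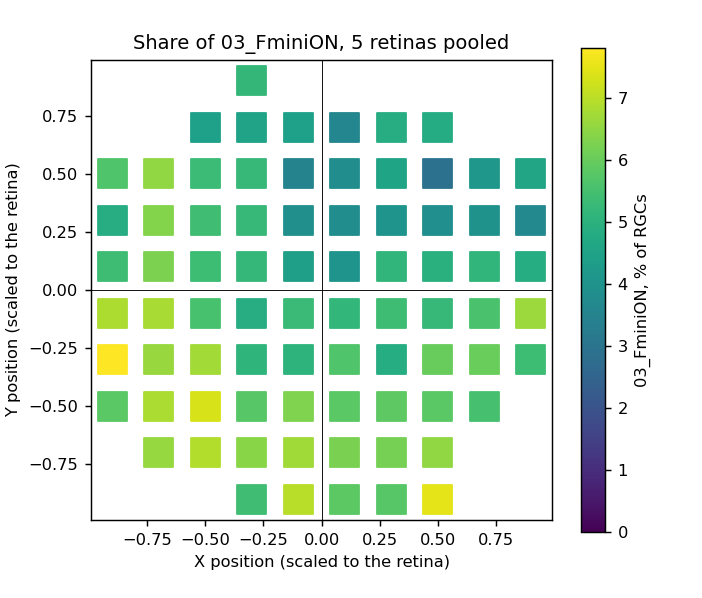
Share of F-mini ON among RGCs, in percent (colour), in squares of the scaled X and Y position with the 5 retinas pooled. Shares lie between 2.95 and 7.81%, with the lower ones mainly where X and Y are both positive. Whether Y runs the same way in all 5 retinas was not tested.

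Within F-mini ON cells, 3 of 282 genes tested (1.06%) differed between periphery and centre, and all 3 were higher in the periphery. The edgeR fit summed puncta per retina and side with the retina as block and adjusted over all type and gene pairs of the axis. Fxyd6, a regulator of the sodium-potassium pump, held 3.35, 3.20, 3.03, 3.38 and 5.37 per 1000 puncta in the periphery, against 2.39, 2.12, 2.47, 2.22 and 2.86 in the centre. It rose in the periphery by a log2 ratio of 0.58 ± 0.07 (SE, edgeR, adjusted p = 0.00642), and the sides did not overlap between retinas. Sparc, a matrix-associated glycoprotein, held 7.12, 5.37, 5.06, 4.85 and 7.62 per 1000 puncta in the periphery, against 6.02, 4.09, 4.91, 3.64 and 5.19 in the centre. Its log2 ratio was 0.33 ± 0.06 (edgeR, adjusted p = 0.0323), with overlap between retinas but the same direction in each. Spc25, a kinetochore protein, held 20.6, 18.5, 17.7, 14.8 and 20.6 per 1000 puncta in the periphery, against 15.9, 15, 17.5, 12.3 and 15.3 in the centre, with a log2 ratio of 0.27 ± 0.05 (edgeR, adjusted p = 0.0316). Leaving out retina 2 or retina 4 left 1 gene, Fxyd6, and leaving out retina 3 gave 5. Sparc and Spc25 also lost their call without retina 1 (edgeR, adjusted p = 0.0512 and 0.0549). The same held without retina 5 (edgeR, adjusted p = 0.0902 and 0.0944). Per cell rather than per 1000 puncta, Sparc and Spc25 were higher in the periphery in 4 of 5 retinas.

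These changes were not particular to F-mini ON. Fxyd6, Sparc and Spc25 passed in the same direction in 26, 9 and 17 of the 37 types fitted, and their log2 ratios in F-mini OFF were 0.54, 0.25 and 0.31. The test of the difference between F-mini ON and F-mini OFF in the change along the radius called none of 285 genes (0%) in edgeR or DESeq2, and 22 had an unadjusted p under 0.05. Markers of other cells moved along the same axis. In F-mini ON cells the Müller glia list, which holds Sparc, summed to 11.5 per 1000 puncta (9.67 to 14.8) in the periphery and 9.28 (7.43 to 11.1) in the centre. The rod list summed to 5.90 and 4.59 and the vascular list to 0.36 and 0.26, each higher in the periphery in all 5 retinas, and the general RGC list to 74.9 and 77.5. Their part in the results on genes was not tested. In another fit, cells with 10 or more Guca1b puncta were removed from all types, which also changes the adjustment over type and gene pairs. Within F-mini ON 12 genes then passed, all higher in the periphery. Among them were Fxyd6, Sparc, Spc25, Scn7a and the photoreceptor genes Guca1b, Pde6g, Gngt1, Cnga1 and Rpgrip1. Guca1b is itself the gene by which these cells were removed.

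**Figure D4:**
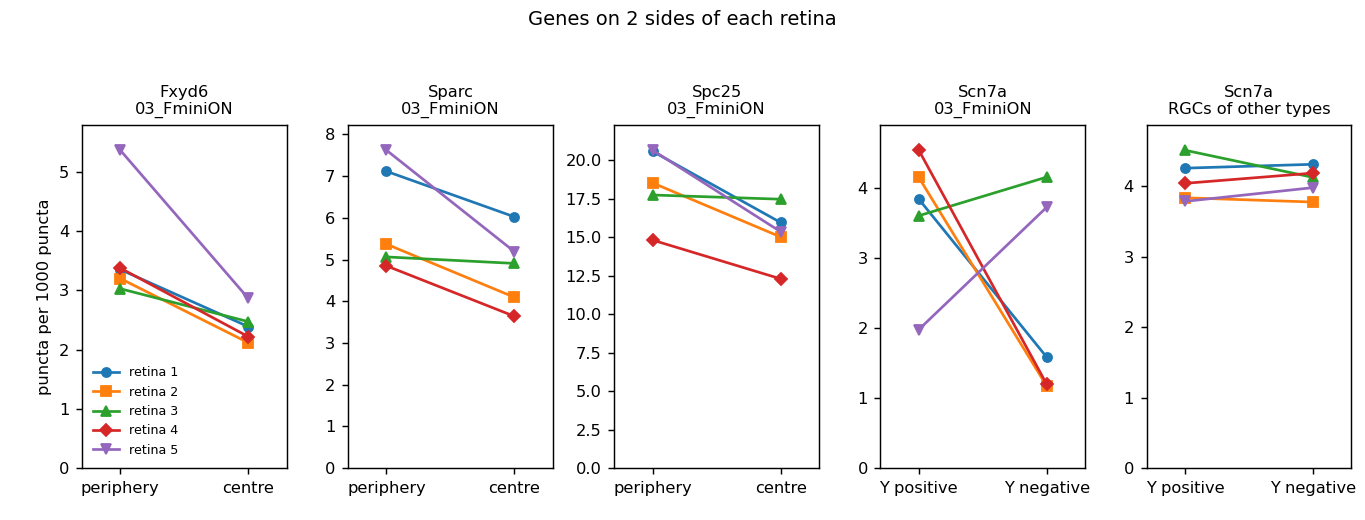
Puncta of a gene per 1000 puncta on both sides of each retina; the first 3 panels show Fxyd6, Sparc and Spc25 in F-mini ON cells, and the last pair Scn7a along Y in F-mini ON cells and in RGCs of other types. Each line joins the sides of 1 of 5 retinas: Fxyd6, Sparc and Spc25 are higher in the periphery in all 5, and Scn7a in F-mini ON cells is higher on the Y positive side in retinas 1, 2 and 4 and lower in retinas 3 and 5.

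Along X none of 290 genes (0%) and along Y none of 288 (0%) passed within F-mini ON in edgeR, with 22 and 24 at an unadjusted p under 0.05. DESeq2 called 2 genes along X, Fxyd6 and Spp1, and none along Y. The difference between F-mini ON and F-mini OFF called none of 289 genes along X and none of 288 along Y (0% each), with 9 and 10 at an unadjusted p under 0.05 and none in DESeq2. Without retina 5 edgeR called 1 gene within F-mini ON along Y and 4 in the difference along Y.

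Scn7a, chosen here after its values were seen, differed between the Y sides of single retinas more than the fit over 5 retinas shows. In F-mini ON cells it held 3.84, 4.15, 3.60, 4.54 and 1.98 per 1000 puncta on the Y positive side, against 1.58, 1.17, 4.16, 1.19 and 3.73 on the Y negative side. Retinas 1, 2 and 4 were thus higher on the Y positive side and retinas 3 and 5 lower, the same retinas that divided for Opn1sw, and the fitted log2 ratio was 0.82 ± 0.42 (SE, edgeR, adjusted p = 0.512). Cells with 3 or more Scn7a puncta made up 18.0, 16.1, 12.6, 17.1 and 6.61% of F-mini ON cells on the Y positive side, against 4.95, 2.78, 15.3, 3.09 and 15% on the Y negative side. In F-mini OFF cells the ratio of the Y positive to the Y negative level was 0.99, 0.92, 1.06, 1.28 and 0.64, and over the sum of all RGCs of other types it lay between 0.95 and 1.09. Single types hidden in that sum differed along Y too. In 17_Tbr1_S1 the log2 ratio of the Y positive to the Y negative level in retinas 1 to 5 was 0.98, 1.24, -0.25, 1.66 and -0.01, and in 02_W3D1.2 it was 0.64, 0.52, -0.31, 0.68 and -0.12, with the same signs as in F-mini ON. In 42_AlphaOFFS it was 1.32, 0.97, 0.26, -0.02 and 0.69, and in 45_AlphaOFFT 1.31, 1.24, -0.20, -0.86 and 0.48. The division along Y was thus not shown to be particular to F-mini ON.

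The 661 F-mini ON cells with 3 or more Scn7a puncta, 10.1 ± 2.5% of the type per retina, were set against the 4908 cells with none, as a description of a subset cut after the values were seen. Gabrg3, a GABA-A receptor γ subunit, averaged 0.932 puncta in cells with Scn7a and 0.258 in cells without, a log2 ratio of 1.59 ± 0.18. The synaptic organizer Cbln4 had a ratio of 0.82 ± 0.12 and the channel subunit Kcnab1 of 0.60 ± 0.24, while Grin3a had -0.90 ± 0.38, Grik1 -0.75 ± 0.33 and Cbln2 -0.65 ± 0.07. Each had the same sign in 5 of 5 retinas. With the retinas pooled, 69.3% of the cells with 3 or more Scn7a puncta lay on the Y positive side, against 37.7% of those with none. In retinas 3 and 5 alone, cells with 3 or more Scn7a puncta were less frequent on the Y positive side, as given above. Along Y, Gabrg3 in F-mini ON cells held 1.68, 1.83, 1.62, 2.12 and 1.34 per 1000 puncta on the Y positive side, against 0.944, 0.728, 1.54, 0.850 and 1.75 on the Y negative side. It was higher on the Y positive side in retinas 1 to 4, retina 3 included, where Scn7a was lower, and lower in retina 5. Its fitted log2 ratio along Y was 0.66 (edgeR, adjusted p = 0.383). In F-mini OFF cells the ratio of the Y positive to the Y negative level of Gabrg3 was 1.5, 1.22, 1.76, 1.91 and 0.78.

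Among genes with at least 0.5 puncta per cell, extra variance between cells, beyond that of counting, was largest for Guca1b at 30.6 ± 19.1 times the squared mean (SD, n = 5), against 0.78 in F-mini OFF cells, and for the rod gene Pde6g at 16.0 ± 11.2, against 1.2 in F-mini OFF cells. Scn7a had 2.73, against 1.39 in F-mini OFF cells. Ptgds had 9.76 in F-mini ON and 10.1 in F-mini OFF cells. Both photoreceptor genes met that minimum only through the 27 cells rich in Guca1b: the other F-mini ON cells averaged 0.321 Guca1b and 0.394 Pde6g puncta, under the minimum of 0.5.

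F-mini ON cells lay at some distance from each other, as RGCs of 1 type are known to do. Among the 10 nearest RGCs of an F-mini ON cell, 2.15 ± 0.37% were F-mini ON, against 5.27 ± 0.71% around RGCs of other types. The log2 ratio was -1.30 ± 0.12, lower in 5 of 5 retinas, and ranked 18 of the 45 types from the lowest. For F-mini OFF this ratio was -1.65 ± 0.52, and the difference of 0.35 ± 0.47 between the pair did not pass an exact sign-flip permutation test (p = 0.25). In rings of increasing distance, in the file's units, the number of F-mini ON cells around an F-mini ON cell was 0.20, 0.11, 0.43, 0.45 and 0.73 times the number set by the type's share of the RGCs there, in the rings 0 to 10, 10 to 15, 15 to 20, 20 to 30 and 30 to 40. It was 0.96 in the ring 40 to 50, 1.14 in the ring 50 to 60 and 1.04 to 1.06 farther out.

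A larger share of F-mini ON than of F-mini OFF cells had an own-type cell close by. Relative to the type's share of RGCs, of the rings up to 30 only the ring 15 to 20 held the types apart. There the ratio was 0.431 ± 0.105 for F-mini ON and 0.126 ± 0.085 for F-mini OFF. In the rings 0 to 10 and 10 to 15 it was 0.20 ± 0.09 and 0.11 ± 0.04 for F-mini ON. For F-mini OFF it was 0.15 ± 0.14 and 0.08 ± 0.04 in these rings, where the retinas of the types overlapped. In the ring 20 to 30 it was 0.45 for F-mini ON and 0.42 for F-mini OFF. An own-type cell within 20 units was found for 5.48, 5.44, 7.56, 7.79 and 5.49% of F-mini ON cells in retinas 1 to 5, against 1.38, 3.01, 1.08, 1.82 and 1.36% of F-mini OFF cells. The types did not overlap, with a difference of 4.62 ± 1.62 percentage points (exact sign-flip test, two-sided, p = 0.062, higher in 5 of 5 retinas). F-mini ON cells were also the denser type, with a median distance to the nearest own-type cell of 46.2 ± 2.6 against 53.5 ± 3.4 for F-mini OFF. The percentages within 20 units were not corrected for that density.

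The 423 F-mini ON cells with an own-type cell within 20 units held a median of 237 puncta, and the others held 280.5. They averaged 1.66 Foxp2 puncta against 2.27 in the others. As a share of puncta their log2 ratio was -0.25 ± 0.10 for Foxp2 and -0.44 ± 0.23 for Tafa3, and 0.54 for Foxp1 and for Grin3a, with the same sign in 5 of 5 retinas. Tafa1, which is high in F-mini OFF, had 1.06 ± 0.60. Penk, which was higher in F-mini ON than in F-mini OFF by a log2 ratio of 0.43 ± 0.25, had 0.78 ± 0.46. Foxp2 and Tafa3 were thus lower, and Foxp1, Grin3a, Tafa1 and Penk higher, in F-mini ON cells that lay close to another. These genes were chosen after the values were seen, and the genes that separate the pair were not tested as a set.

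By the mean nearest distance relative to random placement at the same density, the pair did not differ detectably. The ratio in the ring 15 to 20, which is relative to the type's share, did hold the types apart, as given above. The mean distance to the nearest own-type cell was 0.943 ± 0.051 times that of cells placed at random at the same density for F-mini ON and 0.933 ± 0.027 times for F-mini OFF, over 26 sections with at least 30 cells of both. The difference was 0.010 ± 0.044 (exact sign-flip permutation test, p = 0.688). These values depend on the area: within regions that the authors drew they were 1.19 ± 0.11 for F-mini ON and 1.18 ± 0.11 for F-mini OFF, and with the convex hull of a section as its area 0.622 and 0.606.

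**Figure D5:**
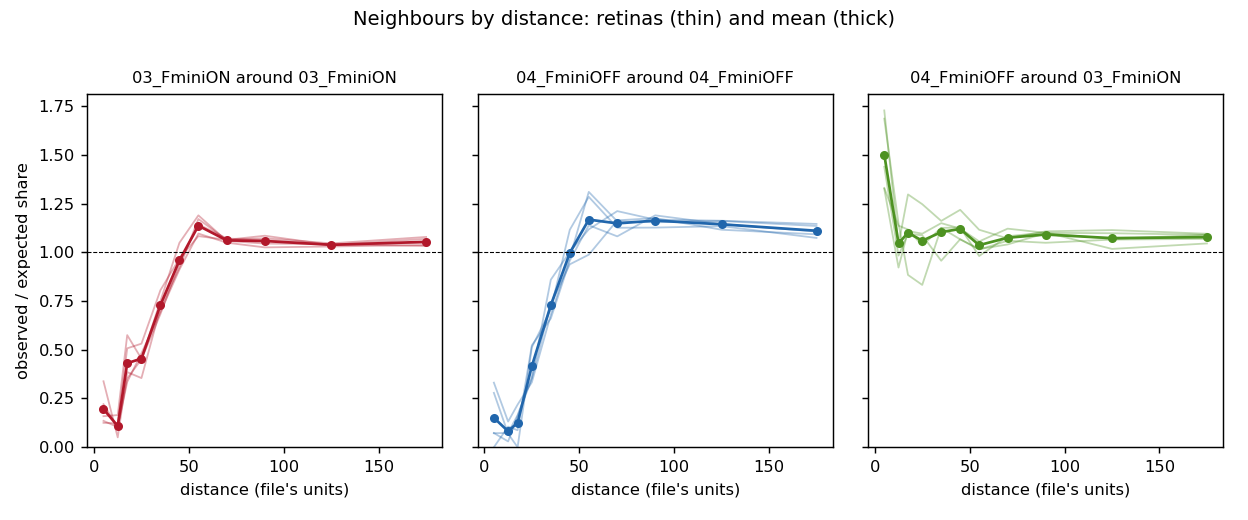
Number of cells of a type around F-mini ON or F-mini OFF cells, divided by the number set by that type's share, against distance in the file's units; thin lines are the 5 retinas and points their mean, and the dashed line marks 1. F-mini ON around F-mini ON and F-mini OFF around F-mini OFF stay under 1 up to 40 units, whereas F-mini OFF around F-mini ON starts at 1.5 in the ring 0 to 10 and then lies between 1.04 and 1.12.

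F-mini OFF cells did not keep away from F-mini ON cells. They made up 3.76 ± 0.30% of the 10 nearest RGCs of an F-mini ON cell and 3.34 ± 0.19% of those of RGCs of other types. The log2 ratio was 0.17 ± 0.08, higher in 5 of 5 retinas (exact sign-flip test, two-sided, p = 0.062). Since F-mini ON cells had few own-type neighbours, a larger share was left to the other types together, and the ratio was not corrected for this. The other types with the highest ratio around F-mini ON cells were 35_Novel with 0.39 ± 0.12, 39_Novel with 0.21 ± 0.06 and 02_W3D1.2 with 0.17 ± 0.08, each higher in 5 of 5 retinas. In the ring 0 to 10 there were 1.5 ± 0.19 times as many F-mini OFF cells around F-mini ON cells as their share sets, and in the ring 150 to 200 still 1.08 ± 0.02 times.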

How the data were processed

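Per the file headers, the authors deposited 1 table of puncta counts per cell for 300 genes, beside columns for its type, volume, place, section, slide and retina, and the counts were used as deposited. Segmentation, type assignment and the units of position, volume and the deposited nearest-neighbour distance are not given in the sources used here. The deposited samples are pairs of slides with no map to the table's slides, so the retina was the replicate. Positions are signed scores scaled by the authors to each retina, per the file headers, and were split at a radius of 0.5 and at 0 on X and Y.

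Shares (cells per type) and puncta were summed per retina and side, and fitted with edgeR 4.0.16 in R 4.3.3. The fits used quasi-likelihood tests with the retina as block and, for genes, TMM and filterByExpr over types with at least 50 cells per retina and side. P-values had Benjamini-Hochberg adjustment over all types, all type and gene pairs of an axis or all genes of the difference between the F-mini types, with a threshold of 0.05. Both sides come from the same retina, which is the pairing. Volume, spacing and neighbours had exact two-sided sign-flip permutation tests over the 5 retinas. Python 3.11.15, numpy 2.4.6, scipy 1.17.1, pandas 2.3.3, matplotlib 3.10.9 and DESeq2 1.42.0 (alternative) were used. Alternatives were other blocks, filters, cell minimums and weights, and leaving out each retina.

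Genes were named as up to 12 per direction against other RGCs and up to 10 against F-mini OFF, by mean log2 ratio. They had at least 0.2 puncta per cell in the higher group and the same sign in all 5 retinas. Genes of the position fits were up to 12 per direction that passed, with at least 100 puncta and the same direction per 1000 puncta in all 5 retinas. List examples were the 2 highest and 2 lowest. Some genes that these rules name are not reported here. Gria2 for its rank, Scn7a along Y, the subsets and their genes were chosen after the values were seen, as was the removal of Guca1b-rich cells. Members and lists were chosen with earlier results of these data known. On simulated data the radial fit within F-mini ON recovered 42 of 91 1.2-fold and 78 of 94 1.5-fold changes among 279 genes, and called 2 of 94 unchanged genes. Most genes were changed there, all retinas shared the same gene proportions, and adjustment was over the genes of F-mini ON alone. The fit on the data differs in each of these, so the simulation does not give its sensitivity.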

Additional observations from a re-analysis of the deposited data

Results flagged for a closer look

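Of 54 values tested over the 5 retinas for a retina that stands apart, 1 had such a retina, where chance alone gives about 1 in 20. It was the log2 ratio of the median volume of F-mini ON cells, periphery over centre, which was -0.177 in retina 3 and between 0.0001 and 0.032 in the other retinas.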

How the results depend on the processing

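Over the alternatives run, 98 recomputed values of the main comparisons were kept and 21 were not. A ratio or difference was kept if its direction and side of the threshold stayed. A count of genes was kept if it stayed close to the main count, and many of these were 0 in both. For single genes and shares of cells with a marker, 20 values were kept, 13 became weaker and 6 moved. Without the retina block, which pairs both sides of a retina, no gene passed along the radius (0 against 3), and the F-mini ON share along X was -0.197 with an adjusted p of 0.201. By the exact sign-flip test that share had -0.201 and p = 0.062, the smallest that 5 retinas allow. With sections, which lie within retinas, as block, the share passed along the radius (0.120, adjusted p = 0.0149) and along Y (-0.248, adjusted p = 0.000300). Genes called along the radius numbered 1 when adjusted over F-mini ON alone, 5 with the slide as block, 5 in DESeq2 and 12 without Guca1b-rich cells, and along X 2 in DESeq2 and 2 without those cells.

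Leaving out single retinas gave log2 share ratios of 0.113 to 0.143 along the radius, -0.212 to -0.193 along X and -0.334 to -0.213 along Y. It gave 1 to 5 genes along the radius, 0 to 1 along Y and 0 to 4 for the difference from F-mini OFF along Y. Log2 volume ratios lay between -0.033 and -0.017 against F-mini OFF and between -0.037 and 0.016 along the radius, where the sign turned without retina 3 (0.016). The spacing difference lay between -0.0030 and 0.022 and turned without retina 1 (-2.85e-05) and without retina 5 (-0.0030). The log2 ratio of F-mini OFF neighbours lay between 0.131 and 0.179. Fxyd6 kept its call except without the block (adjusted p = 0.303), and Sparc and Spc25 lost theirs in 6 settings each, with adjusted p up to 0.149 and 0.128 without single retinas. The causes of these changes were not tested. Medians under 300 puncta per cell leave most genes at 0 or 1 punctum, which limits statements on single cells.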
